A study of Rattus norvegicus with 3 samples.

Results

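The genes described here are 10 components and targets of bone morphogenetic protein (BMP) signalling: the ligand genes Bmp2 and Bmp4, the receptor genes Bmpr1a and Bmpr2, the antagonist gene Grem1, the inhibitory Smad gene Smad6, and the Id genes Id1, Id2, Id3 and Id4. They were chosen by gene name, and all 10 had a probe, among 35506 genes with a probe on the array. The array carried 19 probes for them. The comparison set F65, a line of rat induced pluripotent stem (iPS) cells, against a control RNA named mix1. The iPS cells were untreated and were maintained on a feeder layer of irradiated mouse embryonic fibroblasts, in medium with fetal bovine serum and serum replacer. For mix1 the labels describe the culture of rat bone marrow cells (BMC) and of primary ear fibroblasts (PEF), also from rat, which its name implies were mixed. As a model, F65 is 1 line and mix1 is 1 control sample, and the proportions of cell types in mix1 are not given in the sources used here. Rat strain and age are likewise not given there. Total RNA of 3 iPS F65 samples, labelled with Cy3, was hybridised against mix1, labelled with Cy5, on 3 arrays of 2 colours.

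BMPs are secreted ligands that bring together type I receptors, such as the product of Bmpr1a, and type II receptors, such as the product of Bmpr2. The active receptor complex phosphorylates Smad1, Smad5 and Smad9, which enter the nucleus with Smad4 and switch on target genes, among them the Id genes. Id proteins have a helix-loop-helix domain but no DNA-binding region, so they hold E proteins and other partners in dimers that cannot bind DNA. In mouse embryonic stem cells, BMP and Id proteins act together with leukaemia inhibitory factor in self-renewal, while in fibroblasts and bone marrow stroma BMP signals act in differentiation and matrix formation.

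The probes are 60 bases long, and 7 of them are shown because the comparisons below turn on them. They stand for the Id gene with the largest difference, for Id2, for the antagonist, for the inhibitory Smad and for a ligand and a receptor gene within 2-fold. Coordinates are those of the array files, whose headers name the build rn3, with the strand read from the order of the coordinates. Capitals mark the 43 bases that a pair of Id3 probes share, so these probes are not independent measurements. The coordinates of both span 175 bases and those of the Smad6 probe span 4300, longer than the probes themselves.
Id3, upstream probe, chr5:154944495-154944669, + strand: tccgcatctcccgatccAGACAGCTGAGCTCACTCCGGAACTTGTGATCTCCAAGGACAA
Id3, middle probe, chr5:154944512-154944686, + strand: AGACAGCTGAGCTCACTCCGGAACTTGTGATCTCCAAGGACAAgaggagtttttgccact
Id2, upstream probe, chr6:42786238-42786297, - strand: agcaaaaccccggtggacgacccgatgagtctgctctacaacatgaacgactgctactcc
Grem1, upstream probe, chr3:99496811-99496870, - strand: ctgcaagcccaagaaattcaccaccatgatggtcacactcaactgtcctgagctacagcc
Smad6, chr8:68218911-68223210, - strand: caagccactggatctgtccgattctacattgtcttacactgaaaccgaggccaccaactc
Bmp4, chr15:22299616-22299675, - strand: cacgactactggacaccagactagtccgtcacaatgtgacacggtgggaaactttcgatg
Bmpr1a, upstream probe, chr16:10073098-10073157, - strand: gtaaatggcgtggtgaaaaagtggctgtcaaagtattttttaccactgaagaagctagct

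No run of more than 10 identical bases was shared by probes of different genes in the set, in the same 5′ to 3′ direction. Exon, intron and UTR annotation of the probes was not used here.

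Of the 10 genes, 7 were lower in iPS F65 than in mix1 and none was higher. A call needed a limma adjusted p below 0.05 together with a difference of 2-fold or more, and where a gene had several probes the brightest stood for it. The lower genes were Grem1, Id3, Smad6, Id4, Id1, Bmp2 and Id2, so that the antagonist, the inhibitory Smad, a ligand and the whole Id family lay on the same side. Bmpr2, Bmp4 and Bmpr1a were within 2-fold. Among all 21771 genes tested, 24.5% were called lower, 30.9% higher and so 55.4% in either direction, against 7 of 10 here. The median log2 ratio of iPS F65 over mix1 was -2.04 over the 10 genes and 0.25 over all genes tested. All 10 ratios were below 0 with an unadjusted p under 0.05 (limma), and none above 0. Among all 21771 genes tested, 8969 were below 0 at that p and 11850 above 0, so nearly every gene passed it.

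**Figure D1:**
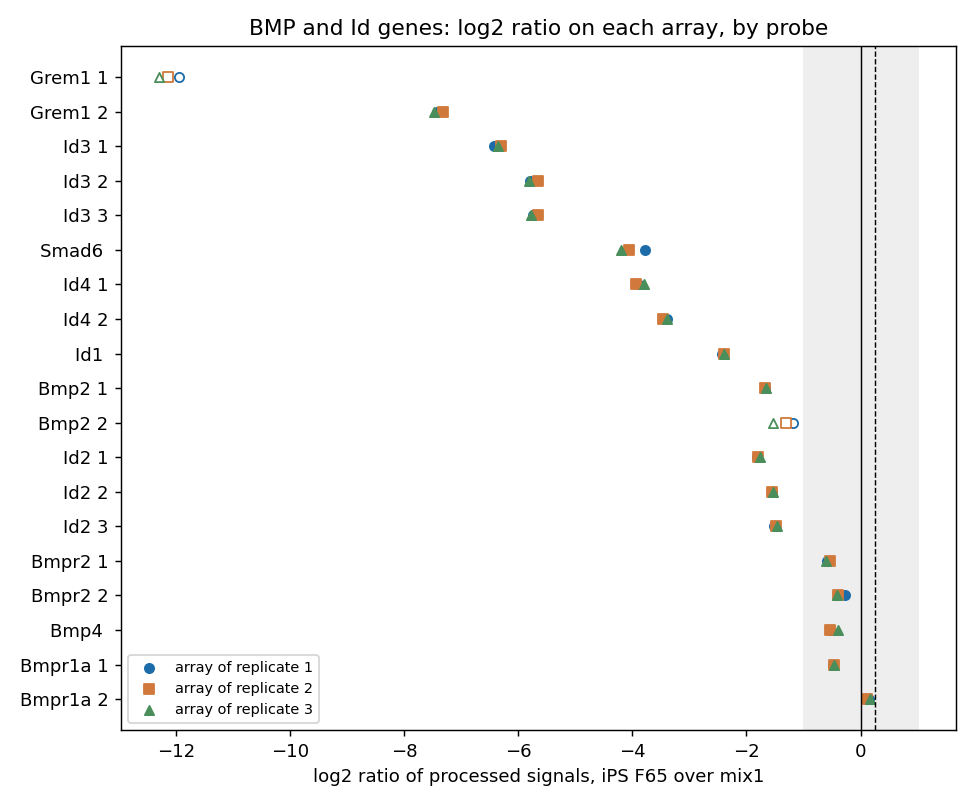
Log2 ratio of processed signals, iPS F65 over mix1, on each of the 3 arrays (symbols) for the 19 probes, ordered by gene; numbers after a name count that gene's probes from the lowest ratio. Open symbols are probes not well above background in iPS F65, the grey band is the 2-fold range, and the dashed line is the median of all genes tested (0.25). Both Grem1 probes and all 3 Id3 probes lie below -5, while the Bmpr1a, Bmpr2 and Bmp4 probes lie inside the band.

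The 3 arrays lay on 1 slide and were scanned once, so no slide or scan batch could be compared. Gene spots well above background made up 57.1% to 61.2% of an array for iPS F65 and 58.3% to 62.1% for mix1. The number of arrays, 3, limits the precision of every value. The dyes were not swapped, so an effect of the dyes and the difference between the cells cannot be told apart. Whether separate cultures gave the 3 samples is not said in the labels. Hence the p-values cover only the spread among the 3 samples, possibly a technical one, and no spread of mix1. An adjusted p below 0.05 was reached by 95.5% of the 21771 genes, so the 2-fold limit decided most calls. Nor was it counted how many of all genes had channels that did not overlap. The share of called genes that were higher was 55.8%, and 41.2% when mean signals were corrected with normexp and scaled with loess instead. This moved the median of all genes to -0.08. As a check of the labels, 6 of 7 tested pluripotency markers were higher in iPS F65, Pou5f1 by at least 4.53-fold and Sox2 by a log2 ratio of 3.14 ± 0.40 (SD, n = 3), while Nanog, Zfp42 and 5 further markers on that list had no probe of that name. All 16 fibroblast and mesenchymal markers and 10 of 12 tested macrophage and marrow markers were lower. Here and below, a fold given as at least a value holds for the reported processing only, and normexp with loess mostly gave less.

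The Id genes showed graded differences. Id3 was the lowest of the family. At its brightest probe, chr5:154945376-154945435, the log2 ratios on the arrays of replicates 1, 2 and 3 were -6.42, -6.31 and -6.35. The processed signals behind them were 818, 1002 and 1027 in iPS F65 and 70260, 79721 and 83843 in mix1. Signals in both channels were well above background on all 3 arrays. The mean was -6.36 ± 0.06 (SD, n = 3), an 82.3-fold difference (limma, adjusted p = 5.39e-06), and only 1.82% of the genes tested had a ratio as low. The overlapping upstream and middle Id3 probes shown above gave 52.9-fold and 53.9-fold, with log2 ratios of -5.72 ± 0.07 and -5.75 ± 0.08.

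Id4 followed, with log2 ratios of -3.39, -3.47 and -3.39 at its brighter probe (chr17:22525981-22526040). Signals were 808, 866 and 890 in iPS F65 and 8491, 9610 and 9307 in mix1. The mean of -3.42 ± 0.05 (SD, n = 3) was a 10.7-fold difference (limma, adjusted p = 6.36e-06). A dimmer Id4 probe further 3′ (chr17:22525459-22525518) gave -3.88 ± 0.08.

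Id1, often used as a readout of BMP-activated Smads, had 1 probe, at chr3:142992779-142992838. Its signals were 2978, 3539 and 3514 in iPS F65 against 16019, 18488 and 18499 in mix1. Ratios were nearly the same on the 3 arrays, at -2.43, -2.39 and -2.40. The mean of -2.40 ± 0.02 (SD, n = 3) was 5.29-fold (limma, adjusted p = 6.11e-06), and the iPS signal stayed well above background throughout.

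Id2 had the smallest difference of the family and was read by 3 separate probes. The brightest, at chr6:42784165-42784224, had signals of 10298, 11551 and 11197 in iPS F65 and 30234, 33810 and 32636 in mix1. Its log2 ratios were -1.55, -1.55 and -1.54. The other probes gave -1.79 ± 0.03 (chr6:42785674-42786023) and -1.49 ± 0.03 (the upstream probe shown above), so the probes spanned 0.30 on the log2 scale. With its brightest probe the difference was 2.93-fold (mean -1.55 ± 0.01, SD, n = 3; limma, adjusted p = 7.15e-06).

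The family thus ran from Id3 through Id4 and Id1 to Id2, and no range of 1 Id gene over the arrays overlapped that of another, whichever of its probes was taken. These are differences between ratios. Levels of different probes were not compared.

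**Figure D2:**
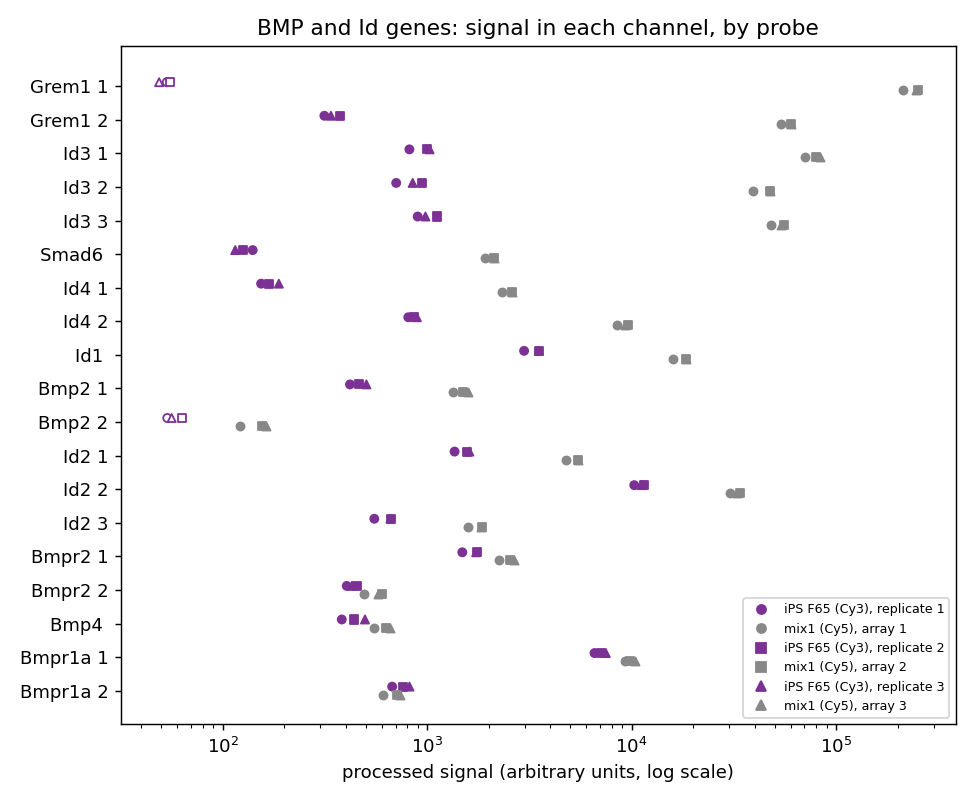
Processed signal (log scale, arbitrary units) in iPS F65 (Cy3, purple) and mix1 (Cy5, grey) on each of the 3 arrays (symbols) for the 19 probes, in the same order as in the plot of ratios; open purple symbols are not well above background. The 2 channels come close together for Bmpr2, Bmp4 and Bmpr1a, but overlap only at the upstream Bmpr1a probe. How many of all genes separate in this way was not counted. Signals of different probes are not comparable.

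The RefSeq sequence just before the start was available for all 4 Id genes on build GRCr8. It is shown for Id1 and Id3, the Id gene with the most used readout and the one with the largest difference, without the bases that lie inside the RefSeq span of the gene. Capitals mark GTCT on either strand, the half-site of Smad binding elements.
Id1, chr3:161671314-161671524, + strand: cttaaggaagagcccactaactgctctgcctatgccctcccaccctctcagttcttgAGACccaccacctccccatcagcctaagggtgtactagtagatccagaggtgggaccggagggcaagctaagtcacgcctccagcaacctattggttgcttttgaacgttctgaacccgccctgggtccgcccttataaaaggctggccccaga
Id3, chr5:153656041-153656252, + strand: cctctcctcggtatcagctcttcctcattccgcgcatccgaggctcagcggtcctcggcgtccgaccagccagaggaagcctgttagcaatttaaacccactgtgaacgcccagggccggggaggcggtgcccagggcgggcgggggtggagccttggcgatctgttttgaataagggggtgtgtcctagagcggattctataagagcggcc

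In promoter windows of 250 bases, GTCT on either strand was present in 3 of the 4 Id genes (Id1, Id2 and Id4) and absent from Id3. Of all 33469 promoters of that length, 84% hold it. For Id1 and Id3 only 211 and 212 of the 250 bases lie before the RefSeq span of the gene. The motif GGCGCC, a GC-rich element bound by BMP-activated Smads, was in none of the 4 Id windows, against 8.69% of all promoters, and GGCGCC followed by 5 other bases and GTCT was in none of them, against 0.0418%. Among the 8 genes of the set with a sequence, GGCGCC occurred once, 91 bases before the start of Grem1. TATAAA began 59 bases before the end of the Id1 window, and so nearer to the start of the RefSeq span of Id1. It lay in no other Id window, and 12.9% of all promoters hold it on either strand. These are matches of letters within short windows and show nothing about binding.

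The ligand genes differed from each other. Bmp2 had signals of 419, 466 and 504 in iPS F65 and 1339, 1492 and 1577 in mix1 at its brighter probe (chr3:121286700-121286759). The log2 ratios were -1.68, -1.68 and -1.65. The mean was -1.67 ± 0.02 (SD, n = 3), or 3.18-fold (limma, adjusted p = 7.57e-06). With normexp on the local backgrounds as given, the ratio was -1.09 and the call was lost (limma, adjusted p = 0.0857). A second Bmp2 probe, 616 bases upstream, was dim. It was not well above background on any iPS array and showed Bmp2 at least 2.22-fold lower. With normexp and loess the log2 ratio of this probe was -0.78, within 2-fold and short of that bound.

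Bmp4, a ligand added to culture medium to support mouse embryonic stem cells, was present in both channels. Its signals were 382, 439 and 496 in iPS F65 and 550, 632 and 656 in mix1. Each iPS value lay below the mix1 values, so channels that separate are not peculiar to genes past the 2-fold limit. The log2 ratios were -0.53, -0.53 and -0.40, with a mean of -0.49 ± 0.07 (SD, n = 3). This was 1.40-fold, different from 0 (limma, adjusted p = 0.000768) but under the 2-fold limit. With normexp on the backgrounds as given, the ratio was -0.37 and the difference from 0 was lost (limma, adjusted p = 0.172).

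The receptor genes, like Bmp4, stayed within 2-fold. At the brighter probe of Bmpr2 (chr9:58580649-58580708) signals were 1485, 1758 and 1735 in iPS F65 and 2241, 2549 and 2648 in mix1, with log2 ratios of -0.59, -0.54 and -0.61. Its mean of -0.58 ± 0.04 (SD, n = 3) was 1.49-fold (limma, adjusted p = 0.00013). With normexp and loess Bmpr2 was called lower, just past the limit (limma, adjusted p = 4.19e-06). On the backgrounds as given, normexp put Bmpr2 at -0.62 (limma, adjusted p = 0.0887). The other Bmpr2 probe, 53916 bases upstream, gave -0.37 ± 0.08.

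For Bmpr1a the 2 probes had opposite signs. The brighter one, at chr16:10062309-10062368, had signals of 6581, 7083 and 7475 in iPS F65 and 9274, 9842 and 10371 in mix1. Its mean was -0.48 ± 0.01 (SD, n = 3), or 1.40-fold (limma, adjusted p = 6.94e-05). On the backgrounds as given, normexp put this probe at -0.53 (limma, adjusted p = 0.0891). The upstream probe shown above, 10.8 kb away, had signals of 674, 762 and 819 against 606, 708 and 732, overlapping between the channels, with a mean of 0.14 ± 0.03. Centring each array on its median turned that value to -0.13, and normexp with loess to -0.26. Neither probe reached 2-fold. The ranges of Bmp4 and Bmpr1a over the arrays overlapped, and these genes have no order between them.

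Grem1 encodes gremlin, a secreted protein that binds Bmp2 and Bmp4 and keeps them from their receptors. It had the largest difference of the 10 genes. At the upstream probe shown above, signals were 314, 375 and 338 in iPS F65 and 53949, 60263 and 60288 in mix1. The log2 ratios were -7.43, -7.33 and -7.48, with a mean of -7.41 ± 0.08 (SD, n = 3), which is 170-fold (limma, adjusted p = 5.51e-06). Only 0.79% of the genes tested had a ratio as low. The second probe, 2958 bases further 3′ at chr3:99493853-99493911, had signals of 53.2, 55.3 and 48.8 in iPS F65, not well above background on any array, and 211465, 250520 and 245507 in mix1. It showed Grem1 at least 3585-fold lower. With normexp and loess the log2 ratio of this probe was -11.29, short of that bound. Both probes showed Grem1 lower, and levels of different probes were not compared.

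Smad6 encodes an inhibitory Smad that is itself induced by BMP and damps type I receptor signalling. Its signals were 140, 126 and 115 in iPS F65 and 1924, 2112 and 2115 in mix1. The iPS values were dim but well above background on all 3 arrays. The log2 ratios of -3.78, -4.06 and -4.20 gave a mean of -4.01 ± 0.21 (SD, n = 3), or 16.2-fold (limma, adjusted p = 4.11e-05). This was the largest spread among the 10 genes at their brightest probes. With normexp on the backgrounds as given, the ratio was -2.16 and the call was lost (limma, adjusted p = 0.0922).

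Mesenchymal and marrow markers were also mostly lower in iPS F65. The sums given here weigh the brightest probes most. The summed signal of the 16 fibroblast and mesenchymal markers was 24316 to 31386 on the iPS arrays and 2851142 to 3632546 in mix1, and that of the 12 tested macrophage and marrow markers was 4956 to 6269 against 263377 to 306532. Of the 16, 14 were well above background on all 3 iPS arrays, and Thy1 and Postn were not on any. Of the 12, 7 were well above background on all 3 iPS arrays, and Aif1 and Itgam were not on any. The part of cell composition, including the mouse feeder cells, in the ratios of the BMP and Id genes was not tested. In RNA from bulk cells, fewer cells of a type and less RNA per cell cannot be told apart.

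The remaining genes of the pathway were taken from lists by role, 112 genes without the 10 above, of which 82 were tested. Of these, 10 were higher and 43 lower, with a median log2 ratio of -1.19, where 30.9% of all genes tested were higher and 24.5% lower. With normexp and loess 5 were higher and 43 lower. The plot by role shows that antagonists and target genes lay mostly below the 2-fold band, and receptors and Smads on either side of 0.

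**Figure D3:**
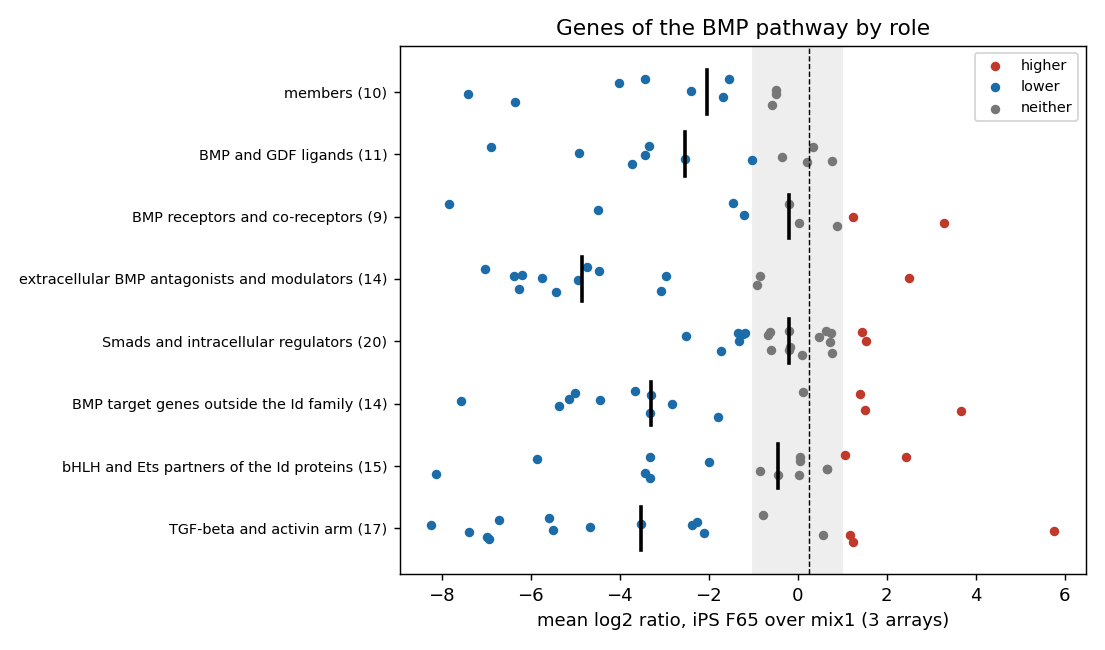
Mean log2 ratio, iPS F65 over mix1, of each tested gene in the 10 genes (top row, members) and 7 lists (number tested in brackets; Hes1 stands in 2 lists), coloured by call; thick bars are list medians, the dashed line is the median of all genes tested (0.25), and the grey band is the 2-fold range. Genes not well above background in 1 channel are drawn at their fitted ratio, which is not a bound. The median of the antagonists is -4.84, against -0.20 for the Smads and intracellular regulators.

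Among 11 tested ligands, none was higher and 7 were lower (median -2.54), against 30.9% and 24.5% of all genes tested. A positive ratio with an unadjusted p under 0.05 (limma) was found for 3 ligands, and for 11850 of all 21771 genes tested. Bmp3, an atypical BMP that opposes osteogenic signalling, was at least 30.9-fold lower and Bmp5 at least 6.67-fold, neither well above background in iPS F65. Both calls were lost with normexp on the backgrounds as given, at -2.43 and -1.10. With normexp and loess the log2 ratios were -4.73 and -2.61, short of those bounds. Bmp7 (-0.36 ± 0.05), named after its value was seen, was within 2-fold.

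Of 9 tested receptors and co-receptors, 2 were higher and 4 lower (median -0.19). All genes tested also went both ways, with 55.4% called, so these counts do not set the receptors apart. Acvr2b, a type II receptor shared by activins and BMPs, was higher on every array, at log2 ratios of 3.31, 3.34 and 3.19. Its mean of 3.28 ± 0.08 (SD, n = 3) was 9.73-fold (limma, adjusted p = 1.03e-05). Bambi, a pseudoreceptor without a kinase domain, was higher by 1.24 ± 0.01, a call lost with median centring (0.96) and with normexp and loess (0.76). Acvrl1, the type I receptor ALK1 of endothelial cells, was at least 69.3-fold lower. Eng, the co-receptor endoglin, was lower by 22.5-fold (-4.49 ± 0.03) and was well above background on 2 of 3 iPS arrays. Those last calls were lost with normexp on the backgrounds as given, at -3.49 and -2.05. The type I receptor genes Acvr1 (-1.46 ± 0.04) and Bmpr1b (0.04 ± 0.05) were lower and not called, respectively, and both were named after their values were seen. Bmpr1b was at -0.17 with normexp and loess.

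Extracellular antagonists and modulators were mostly lower. Of 14 tested, 11 were lower and 1 higher (median -4.84), against 24.5% and 30.9% of all genes tested. Htra1, a secreted serine protease that inhibits TGF-beta family signals, was lower by -7.02 ± 0.07 (130-fold). Chrd, which encodes the BMP-binding protein chordin, was lower by -6.37 ± 0.07 (82.8-fold), with both of its probes called. The mean of these probes was -5.18, so the dimmer one showed a smaller difference. Nog, which encodes noggin, was at least 18.2-fold lower, and Fst, which encodes follistatin, was lower by -4.74 ± 0.02 (26.7-fold). Nog and Fst were named after their values were seen, as familiar antagonists. Sostdc1, a secreted antagonist of BMP and Wnt signals, was the 1 gene called higher. It was not well above background in mix1 and was at least 1.96-fold higher in iPS F65 (fitted log2 ratio 2.50). Its call was lost without background subtraction (0.98) and with normexp on the backgrounds as given (0.41).

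The Smads and intracellular regulators were mostly within 2-fold. Of 20 tested, 12 were neither higher nor lower, 2 were higher and 6 lower (median -0.20). Among all 21771 genes tested, 9719 were neither, 30.9% were higher and 24.5% lower. The Smads that carry the BMP signal had ratios of -0.20 ± 0.01 (Smad1) and 0.76 ± 0.05 (Smad5), while Smad9 was not tested because its signal did not pass the filter on dim probes. The common partner Smad4 was higher by 1.44 ± 0.03 (2.71-fold; limma, adjusted p = 1.26e-05). Zfp423, a zinc finger cofactor of BMP-activated Smads, was higher by 1.54 ± 0.06. With normexp and loess Smad4 was at 0.93 and Zfp423 at 0.99, under the limit. Ctdsp1, a phosphatase that acts on Smads, was lower by -2.51 ± 0.02 with 1 of its 2 tested probes called, and Ski, a co-repressor of Smads, by -1.73 ± 0.02. The other inhibitory Smad, Smad7, was lower by -1.31 ± 0.01. Smad1, Smad5 and Smad7 were named after their values were seen, for their place in the pathway.

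Target genes outside the Id family were lower in 10 of 14 tested cases and higher in 3 (median -3.30), against 24.5% and 30.9% of all genes tested. Sox9, a transcription factor of cartilage, was at least 71.2-fold lower and was not well above background on any iPS array. Its fitted ratios of -6.09, -8.35 and -8.23 were uneven. Tbx3, a T-box factor, was lower by -5.37 ± 0.29. Both calls were lost with normexp on the backgrounds as given, at -3.45 and -2.91. In the other direction, Dusp9, a phosphatase of ERK that BMP induces in mouse embryonic stem cells, was higher on every array, at 3.68, 3.74 and 3.62. Its mean of 3.68 ± 0.06 (SD, n = 3) was 12.8-fold (limma, adjusted p = 6.86e-06). Klf10, an early response gene of TGF-beta and BMP, was higher by 1.51 ± 0.02.

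Of 15 tested partners of the Id proteins, 2 were higher and 6 lower (median -0.45), a called share near the 55.4% of all genes tested and so no result about the partners. The E protein genes Tcf3 (0.05 ± 0.02) and Tcf12 (0.04 ± 0.01) were close to 0 and not called, while the third, Tcf4, was 3.99-fold lower (limma, adjusted p = 6.51e-06). Tcf3 was at -0.40 and Tcf12 at -0.38 with normexp and loess, still within 2-fold. These E protein genes were named after their values were seen, as the main partners. Elk3, an Ets factor, was at least 67.0-fold lower, and Twist2, a mesenchymal basic helix-loop-helix factor, was lower by -5.86 ± 0.28 (58.2-fold). Hand2 was higher by 2.43 ± 0.07 and was well above background in mix1 on 2 of 3 arrays. Rbl1, which encodes the pocket protein p107, was higher by 1.06 ± 0.11. The calls of Elk3 (-3.58) and Hand2 (0.59) were lost with normexp on the backgrounds as given, and that of Rbl1 with normexp and loess (0.55), with median centring (0.78) and without replicate 2 (1.00).

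**Figure D4:**
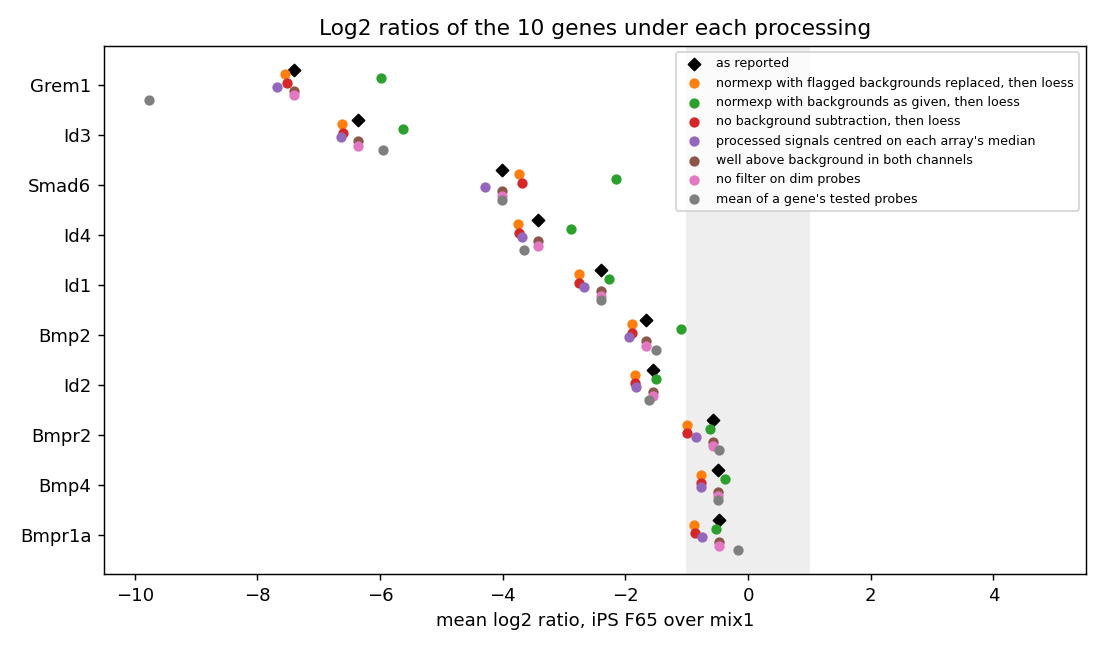
Mean log2 ratio, iPS F65 over mix1, of the 10 genes under the reported processing (black diamonds) and 7 alternatives (coloured points); the grey band is the 2-fold range. All points lie below 0, and Grem1 spreads most, from -5.98 with normexp on the backgrounds as given to -9.77 with the mean of its probes.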

How the data were processed

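Agilent Feature Extraction 9.5.3.1 made the deposited scanner files, per the file headers. Per the file headers, each processed signal is an intensity from which the software had taken a spatial trend and the background, before balancing the dyes of that array. The flags used, such as well above background, are other values per the file headers. The deposited mean and background intensities carry no normalization. The deposited log2 values, made by the authors, equal log2 of green over red processed signal to within 3.11e-06, so they run from mix1 to iPS F65 and were not centred further (medians 0.00, -0.01 and -0.06).

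Here, log2 of gProcessedSignal (iPS F65) over rProcessedSignal (mix1) was averaged over the spots of a probe, leaving out control spots and outlier spots (204 to 213 per array); no spot was saturated. Testing was limited to probes well above background in iPS F65 or in mix1 on all 3 arrays (25797 of 41012 probes). Probes were named through RefSeq genes of a newer assembly or, for 19753, by the file's name, and the brightest probe stood for a gene. Mix1 is 1 control sample, so ratios were tested against 0 with limma 3.58.1 (lmFit, eBayes; R 4.3.3). Calls needed p under 0.05 after Benjamini-Hochberg adjustment over all 21771 genes, and a log2 ratio of 1 or more in size. Probe-level values have the same fit. A fold written as at least N applies where 1 channel of a probe was never well above background. It sets the mean level of the bright channel, after Aquantile scaling, against a floor for the dim one, averaged over arrays: the lowest level among probes above background there, or the probe's own level if larger. Such bounds are open to dye bias and hold for the reported processing only. Ratios with normexp and loess mostly fell short of them. The fit was run on simulated data in which few genes changed, unlike these data, so that run cannot gauge false calls here. Alternatives were normexp background correction with loess (with flagged local backgrounds replaced, or as given), no background subtraction with loess, median centring, a stricter and no filter on dim probes, the mean of a gene's probes, the deposited table, and leaving out each replicate.

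The 10 genes and the lists were chosen with earlier results of these data known. The rule for other named genes took from each list up to 2 called genes with the largest and 2 with the smallest ratios. Promoter sequences are from RefSeq (GRCr8).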

Additional observations from a re-analysis of the deposited data

How the results depend on the processing

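No alternative reversed the direction of any of the 10 genes or of the 25 other genes named by the rule. The tallies here leave out the markers and the genes named after their values were seen. Of the latter, Bmpr1b, Tcf3 and Tcf12, all close to 0 as reported, turned negative with median centring and with normexp and loess. The count of the 10 genes called lower was 7 as reported and 5 to 8 over all alternatives, and that called higher was 0 in each. Of 110 values for the 10 genes under alternatives, 107 kept the reported call, 2 lost it and 1 gained it. Of 265 values for the other genes named by the rule, 235 kept it and 30 lost it. These tallies overstate how far the calls were tried. For the 10 genes, the deposited table and both changes of the filter on dim probes gave the reported ratios again. So did the mean of probes for genes with 1 probe. Among the 10 genes the 2 losses came with normexp on the backgrounds as given, and the gain with normexp and loess. Counts over many genes moved more. Against 6722 genes higher and 5330 lower, normexp with flagged backgrounds replaced and loess gave 3977 higher, loess with no background subtraction 3972, and normexp with the backgrounds as given 2353 higher and 2078 lower. A filter asking for both channels, not 1, to be well above background gave 3228 lower. For the pathway lists, with 10 higher and 43 lower as reported, the same 4 settings gave 5, 4 and 3 higher, and 19 lower with backgrounds as given and 26 lower with the stricter filter, which tested 17229 genes. The causes of these moves were not tested, and the stricter filter also left fewer genes to test. Leaving out each replicate in turn left 7 of the 10 genes lower each time. The slide as a block was not run, since all arrays lay on 1 slide. No paired analysis was possible because there is 1 group of samples. Genes near background, such as Smad6, the dim Bmp2 probe and the 3′ Grem1 probe in iPS F65, have the least certain sizes.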

Other observations

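The neighbouring TGF-beta and activin arm, read from a list of 22 genes, also held differences in both directions. Of 17 tested, 12 were lower and 3 higher in iPS F65, with a median log2 ratio of -3.52. Among all genes tested, 24.5% were lower and 30.9% higher, with a median of 0.25. Ltbp2, a latent TGF-beta binding protein of the matrix, was at least 211-fold lower, and the ligand gene Tgfb3 was lower by -7.39 ± 0.06 (SD, n = 3), or 167-fold. In the other direction, Acvr1c, which encodes the type I receptor ALK7 of nodal and activins, was not well above background in mix1 and was at least 13.5-fold higher in iPS F65. With normexp and loess its log2 ratio was 3.30, short of that bound. Its call was lost with normexp on the backgrounds as given (1.45). Tgfbr1 was higher by 1.24 ± 0.06 with all 3 of its probes called, a call lost with median centring (0.97) and with normexp and loess (0.72). The difference between this list and the BMP genes was not tested.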
